A study of Lactuca sativa with 9 samples.

Results

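Transcript levels of 2 lettuce genes matched to the jasmonate transcription factor MYC2 and of 1 gene matched to the corepressor TOPLESS-RELATED 1 (TPR1) were followed in 9 leaf RNA-seq libraries. The genes were taken by their identifiers, 3 of the 38910 genes in the count tables. They had been chosen by earlier results of the same libraries, in which all of them were higher in Okeechobee than in 60184, so their values in that contrast are given as a description with no test. The libraries came from romaine lettuce (Lactuca sativa var. longifolia) of 3 genotypes with 3 libraries each, named here as the labels name them. Okeechobee is a commercial cultivar of long shelf life (LSL), Manatee is a commercial cultivar of intermediate shelf life (ISL), and 60184 is an experimental breeding line of short shelf life (SSL). The labels give no treatment and no introduced allele. The labels of all samples give mature leaf of plants grown in pots in a chamber. Each shelf life class is represented by 1 genotype, so shelf life and every other difference between these genotypes cannot be told apart.

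Jasmonates are lipid-derived hormones of wounding, defence and leaf ageing. In Arabidopsis, the active form, jasmonoyl-isoleucine, brings the F-box receptor COI1 together with JAZ repressor proteins, which are then degraded. While JAZ proteins persist they hold MYC2 inactive and recruit corepressors of the TOPLESS family, either through the adaptor NINJA or directly. MYC2 and its relatives MYC3 and MYC4 are basic helix-loop-helix (bHLH) activators, and their targets include JAZ genes and genes of jasmonate synthesis and turnover.

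The first gene, Lsat_1_v5_gn_3_17861, is described as MYC2 and its best Arabidopsis match is MYC2 itself. The second, Lsat_1_v5_gn_6_65141, is also described as MYC2, but its best Arabidopsis match is MYC4, and it is called the MYC4-matched gene here. The third, Lsat_1_v5_gn_5_63761, is matched to Arabidopsis TPR1 and described as a WD40 repeat protein, the fold of the TOPLESS family. A further description gives it as a probable receptor-like kinase, so its name is less secure than that of the other two. Sequences, positions and lengths of these genes were not used here, and levels are therefore compared between genotypes and never between genes.

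Library depth was even, with 24108451 to 32840811 reads assigned to genes. The share of uniquely aligned reads outside annotated genes was 6.41 to 12.01% in Okeechobee, 5.238 to 7.704% in Manatee and 6.201 to 6.993% in 60184. Leaf markers were abundant in all libraries as a sum, though not each gene alone. The summed level of 8 mesophyll genes (5 small subunits of Rubisco, Rubisco activase, psbO and psaD) was 4534 to 9893 CPM (reads per 1000000 reads assigned to genes, with library sizes scaled by the trimmed mean of M values, TMM) in Okeechobee, 6225 to 8801 CPM in Manatee and 12884 to 21341 CPM in 60184. The activase gene and a xylem cellulose synthase matched to CESA8 had no read in any Okeechobee or Manatee library. No read allows up to 0.124 CPM in the shallowest library. All genotypes were aligned to the same reference genome, and how sequence differences from it affected these counts was not tested. In 60184 both were read, at means of 2.65 and 7.99 CPM, so the activase gene adds little to the sum. All 8 mesophyll genes fell in Manatee against 60184, and 1 of 7 tested fell in Okeechobee against Manatee, where 8.6% and 3.74% of all genes fell. The markers were found by descriptions in tables of genes that differed between Okeechobee and 60184, so their direction against 60184 is not independent evidence. The summed level of 2 phloem markers, PP2-A1 and a sucrose transporter, was 3.97 to 5.58 CPM in Okeechobee, 2.61 to 5.13 CPM in Manatee and 13.9 to 15.5 CPM in 60184. The trichome gene BRANCHLESS TRICHOME had 1.89 to 4.72 CPM in Okeechobee, 2.30 to 3.85 CPM in Manatee and 3.71 to 10.1 CPM in 60184. Their part in the results below was not tested. In these bulk samples, fewer cells of a type and less RNA per cell cannot be told apart.

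Manatee replicate 2 stood apart from the other Manatee libraries. Across all genes, 14.8% lay at least 1 log2 unit from the mean of the other 2 Manatee libraries, against 7.004 and 6.58% for replicates 1 and 3. It was not alone in the series: the same share was 12.1% for Okeechobee replicate 1 and 11.3% for Okeechobee replicate 3. TPR1 was 5.08-fold higher in replicate 2 than in the mean of replicates 1 and 3, a deviation that 0.463% of all genes reached or passed in that direction. MYC2 was 1.75-fold and the MYC4-matched gene 1.58-fold higher in it, deviations that 8.68% and 11.3% of all genes reached or passed. All 7 JAZ genes, 7 of 9 jasmonate synthesis genes and 3 of 4 turnover genes were also higher in replicate 2 than in the others, whereas both COI1 genes and the 7 mesophyll genes with reads were lower. Fold changes and ratios of the 3 genes that involve Manatee are therefore given with and without that library. Leaving it out was chosen after seeing the data and removes the most deviant Manatee library. Adjusted p values without it are therefore a description. Values of single genes of the other lists are given only with that library included.

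MYC2 was about as high in Manatee as in Okeechobee, and both cultivars lay above 60184. Its levels were 1230, 950 and 892 CPM in the 3 Okeechobee libraries, 944, 1670 and 968 CPM in Manatee, and 550, 483 and 566 CPM in 60184. No Okeechobee or Manatee library fell within the range of 60184, and the lowest Manatee library was 1.67-fold above the highest 60184 library. Such separation was common: 22.3% of all genes lay above 60184 without overlap in Manatee, and 24.7% in Okeechobee. The genotype means were 1024 ± 181 CPM in Okeechobee, 1194 ± 412 CPM in Manatee and 533 ± 43.8 CPM in 60184 (SD, n = 3 each).

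In Manatee against 60184, MYC2 was higher by 1.18 ± 0.25 on the log2 scale (SE), and the quasi-likelihood test of edgeR, adjusted by Benjamini-Hochberg over 22062 genes, gave an adjusted p of 0.02. In that comparison 18.9% of all genes passed an adjusted p of 0.05, 10.3% as higher in Manatee and 8.6% as lower. This comparison shares the 60184 libraries with the contrast that chose the genes. Without Manatee replicate 2, a setting chosen after seeing the data, the difference was 0.85 (adjusted p = 0.0033 by the same edgeR test). The call was lost when any 1 of the 60184 libraries was left out, with edgeR adjusted p values of 0.078, 0.093 and 0.073 without replicates 1, 2 and 3.

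MYC2 did not pass the test between Okeechobee and Manatee. The difference was -0.20 ± 0.29 on the log2 scale (SE), with a 95% interval of -0.89 to 0.50 and an edgeR adjusted p of 0.72. Okeechobee and Manatee overlapped: the highest MYC2 level of all was in Manatee replicate 2 and the next in Okeechobee replicate 1. Without Manatee replicate 2 the sign turned, to 0.10 ± 0.22 (edgeR adjusted p = 0.81). In this comparison 8.28% of 21937 genes passed, 4.54% as higher in Okeechobee and 3.74% as lower. In Okeechobee against 60184, MYC2 was 0.94 ± 0.19 higher on the log2 scale (SE), and there 31.5% of all 22113 genes passed, 16.2% as higher in Okeechobee and 15.3% as lower.

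**Figure D1:**
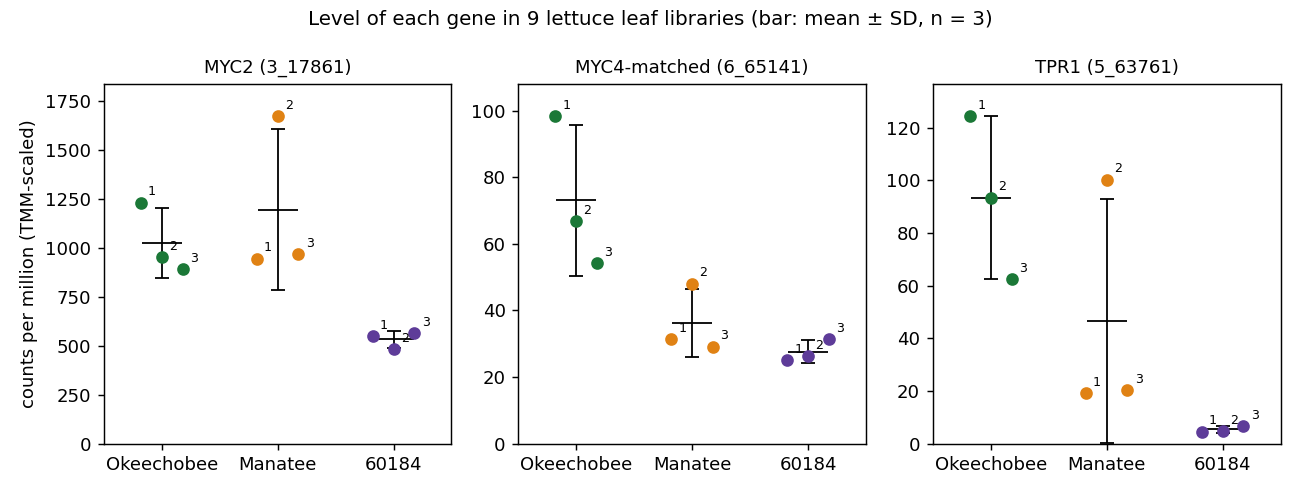
Level of MYC2, the MYC4-matched gene and TPR1 in each library, in TMM-scaled CPM on linear axes that start at 0. Points are libraries labelled by replicate number, and the bars show the mean ± SD of 3 libraries. TPR1 was at 100 CPM in Manatee replicate 2 and at 19.2 and 20.3 CPM in the other Manatee libraries.

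The MYC4-matched gene followed another order: it was highest in Okeechobee, and Manatee lay near 60184. It had 98.3, 66.9 and 54.2 CPM in the Okeechobee libraries, 31.5, 48.0 and 29.2 CPM in Manatee, and 25.0, 26.2 and 31.4 CPM in 60184. All Okeechobee libraries lay above all others, the lowest of them 1.13-fold above the highest Manatee library, while Manatee and 60184 overlapped. Of all genes, 16.5% lay higher in Okeechobee than in Manatee without overlap, and 24.7% higher than in 60184. The means were 73.1 ± 22.7 CPM in Okeechobee, 36.2 ± 10.3 CPM in Manatee and 27.6 ± 3.41 CPM in 60184 (SD, n = 3 each).

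Between Okeechobee and Manatee the MYC4-matched gene differed by 1.04 ± 0.28 on the log2 scale (SE, 95% interval 0.39 to 1.69), which did not pass (edgeR adjusted p = 0.067). This comparison shares the Okeechobee libraries with the contrast that chose the genes. It passed without Manatee replicate 2, a setting chosen after seeing the data, at 1.27 ± 0.27 and an edgeR adjusted p of 0.039. It also passed with DESeq2 in place of edgeR (adjusted p = 0.013), with library size as the only scaling in edgeR (adjusted p = 0.035), and with all 9 libraries in 1 edgeR model (adjusted p = 0.032). It did not pass in the other 5 of 8 alternative settings (edgeR adjusted p = 0.055 to 0.11). Of 6 fits that each left 1 library out, 5 did not pass (edgeR adjusted p = 0.071 to 0.22). Between Manatee and 60184 the difference was 0.40 ± 0.21 with a 95% interval of -0.09 to 0.90 (edgeR adjusted p = 0.21), and without Manatee replicate 2 it was 0.14. In Okeechobee against 60184 the MYC4-matched gene was 1.41 ± 0.23 higher on the log2 scale (SE).

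TPR1, whose Arabidopsis counterpart is recruited to promoters by repressors, had the widest range of the 3 genes as a fold, though not in CPM. It had 124, 93.4 and 62.3 CPM in the Okeechobee libraries, 19.2, 100 and 20.3 CPM in Manatee, and 4.59, 4.78 and 6.79 CPM in 60184. Behind the lowest levels stood 522 reads over the 60184 libraries, against 8031 in Okeechobee and 4068 in Manatee. Every Okeechobee and every Manatee library was above all 60184 libraries, by at least 9.18-fold and 2.82-fold. Separation in that direction, by any fold, was seen for 24.7% and 22.3% of all genes. Okeechobee and Manatee overlapped only through Manatee replicate 2.

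In Manatee against 60184, TPR1 was higher by 3.12 ± 0.69 on the log2 scale (SE, edgeR adjusted p = 0.023), a difference that 1.43% of all genes exceeded. Without Manatee replicate 2, a setting chosen after seeing the data, it was 1.88 ± 0.20 with an edgeR adjusted p of 4e-04. The call was lost without 60184 replicate 1, 2 or 3, with edgeR adjusted p values of 0.1, 0.093 and 0.073. Between Okeechobee and Manatee the difference was 1.03 ± 0.66 with a 95% interval of -0.53 to 2.59, and it did not pass (edgeR adjusted p = 0.37). Without Manatee replicate 2, TPR1 was 2.25 ± 0.31 higher in Okeechobee than in Manatee and passed (edgeR adjusted p = 0.012). This call turned on 1 library, left out after its values were seen. In Okeechobee against 60184, TPR1 was 4.11 ± 0.30 higher on the log2 scale (SE), and 1.23% of genes had a larger positive difference. That contrast chose the genes, so this rank is a description only. Manatee against 60184 shares the 60184 libraries with it, and Okeechobee against Manatee shares the Okeechobee libraries. The rank and tests of TPR1 in those comparisons are therefore not independent of the choice.

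**Figure D2:**
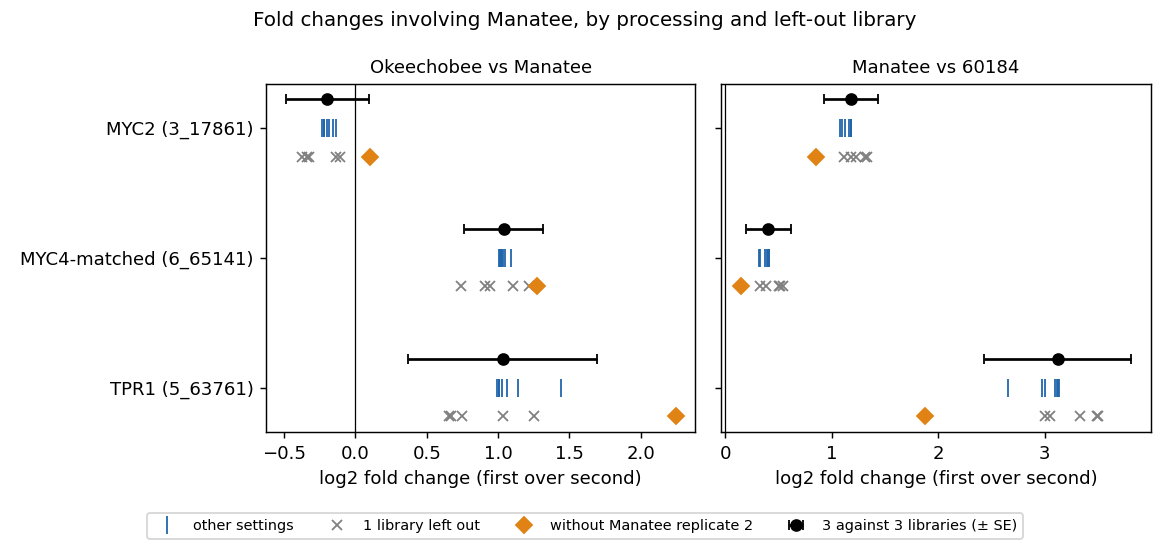
The log2 fold change of each gene in Okeechobee against Manatee and in Manatee against 60184, on linear axes whose ranges differ. Black points with SE bars use 3 against 3 libraries, blue ticks use other processing settings, grey crosses leave 1 library out and orange diamonds leave out Manatee replicate 2. The diamond of TPR1 lies at 2.25 in Okeechobee against Manatee and at 1.88 in Manatee against 60184, outside the values of all other settings shown for it.

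The libraries of a genotype also differed among themselves. In Okeechobee, replicate 1 was highest and replicate 3 lowest for all 3 genes, with deviations from the mean of the other 2 libraries of 0.42 and -0.28 for MYC2, 0.71 and -0.58 for the MYC4-matched gene, and 0.70 and -0.79 for TPR1 on the log2 scale. For MYC2 the lowest library depended on the scaling: as an unscaled share of gene counts it was at 0.0947% in replicate 2 and 0.0948% in replicate 3. The share of uniquely aligned reads outside annotated genes was 12.01% in replicate 1 and 10.84% in replicate 3, against 6.41% in replicate 2. The median deviation of the mesophyll markers was -0.94, 0.79 and 0.11 in Okeechobee replicates 1, 2 and 3. It was 0.11, -0.48 and 0.37 in those of Manatee, and 0.79, -0.42 and -0.40 in those of 60184. TPR1 was highest in Okeechobee replicate 1, Manatee replicate 2 and 60184 replicate 3. The part of these values was not tested.

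Ratios of read counts within a library do not depend on its depth or scaling. For every 100 MYC2 reads, the MYC4-matched gene had 7.99, 7.04 and 6.07 reads in Okeechobee, 3.33, 2.88 and 3.01 in Manatee, and 4.55, 5.43 and 5.56 in 60184. Manatee was lowest without overlap, and its replicate 2 lay close to the other 2 libraries in this ratio. The log2 ratio was -5.03 ± 0.11 in Manatee and -4.28 ± 0.16 in 60184 (SD, n = 3 each), a difference of -0.75. Between Okeechobee, at -3.84 ± 0.20 (SD, n = 3), and Manatee the difference was 1.19. Without Manatee replicate 2, a setting chosen after seeing the data, these differences were -0.70 and 1.14.

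Relative to MYC2, TPR1 was read most in Okeechobee, less in Manatee and least in 60184. It had 10.1, 9.84 and 6.99 reads per 100 MYC2 reads in Okeechobee, 2.03, 6.01 and 2.10 in Manatee, and 0.835, 0.989 and 1.20 in 60184. The genotypes did not overlap in this ratio, even with Manatee replicate 2. The log2 ratio differed by 1.56 between Manatee and 60184, by 1.59 between Okeechobee and Manatee, and by 3.15 between Okeechobee and 60184. Without Manatee replicate 2 the first of these was 1.05 and the second was 2.10. Okeechobee against 60184 chose the genes, so the difference and the lack of overlap in that pair are a description only. The pairs with Manatee share libraries with it. How often ratios of other gene pairs separate the genotypes was not measured.

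For every 100 reads of the MYC4-matched gene, TPR1 had 126, 140 and 115 reads in Okeechobee, 60.9, 209 and 69.6 in Manatee, and 18.4, 18.2 and 21.6 in 60184. The log2 difference between Manatee and 60184 was 2.31, and 1.75 without Manatee replicate 2. Okeechobee and Manatee overlapped only through Manatee replicate 2, and their log2 difference was 0.40, or 0.96 without that library. With 3 libraries against 3, the smallest two-sided p of an exact permutation test is 0.1. Of 6 such tests, all those between Manatee and one other genotype, 5 gave an exact p of 0.1 (adjusted p = 0.12), and TPR1 over the MYC4-matched gene in Okeechobee against Manatee gave an exact p of 0.4. None can pass 0.05 in this design.

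**Figure D3:**
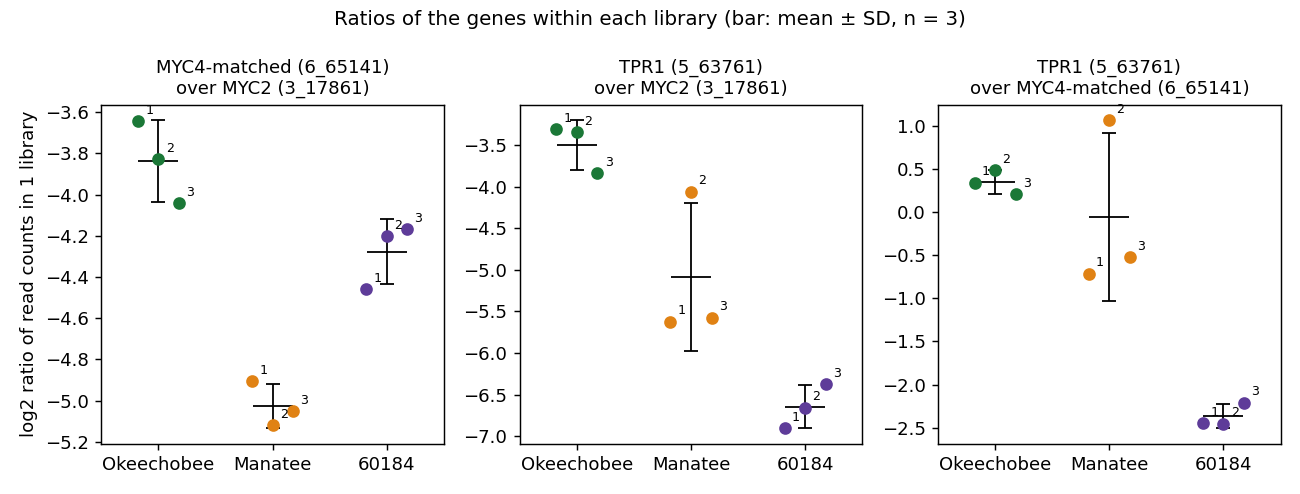
Log2 ratio of the read counts of 2 genes in the same library, by genotype, on axes that do not start at 0. Points are libraries labelled by replicate number and bars show the mean ± SD of 3 libraries. The MYC4-matched gene over MYC2 was lowest in Manatee (-5.03 ± 0.11), and TPR1 over MYC2 separated all genotypes.

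The other genes of the pathway were read from lists of described genes: 2 COI1 genes, 7 JAZ or TIFY genes, 2 bHLH genes of the MTB or JAM type, 9 synthesis genes and 4 turnover genes. Their descriptions came from tables of genes that differed between Okeechobee and 60184, so the lists are not independent evidence for that contrast, nor for the comparisons with Manatee, each of which reuses the 60184 or the Okeechobee libraries of it. In Manatee against 60184, 14 of these 24 genes rose, none fell and 10 did not pass, where 10.3% of all genes rose and 8.6% fell. In Okeechobee against Manatee, 6 rose, 1 fell and 17 did not pass, where 4.54% of all genes rose and 3.74% fell. The count that rose in Okeechobee against Manatee was 12 without Manatee replicate 2, and 2 and 1 without Manatee replicates 1 and 3. It was 3 without Okeechobee replicate 1 and 2 without Okeechobee replicate 2. In Manatee against 60184, 6, 7 and 9 rose without 60184 replicates 1, 2 and 3.

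The receptor genes were lowest on average in Okeechobee, where the MYC4-matched gene and TPR1 were highest on average. COI1 (Lsat_1_v5_gn_8_12401) had 34.2, 28.8 and 32.5 CPM in Okeechobee, 64.6, 47.8 and 59.0 CPM in Manatee, and 57.2, 55.5 and 61.7 CPM in 60184. It fell by 0.82 ± 0.15 on the log2 scale in Okeechobee against Manatee (edgeR adjusted p = 0.022), a call lost without Okeechobee replicate 2 or 3 and without Manatee replicate 1 or 3, and with library size as the only scaling (edgeR adjusted p = 0.0504). Between Manatee and 60184 COI1 differed by -0.02 ± 0.13 (edgeR adjusted p = 0.94). The COI1-related gene Lsat_1_v5_gn_2_45640 differed by -0.77 in Okeechobee against Manatee and by -0.49 in Manatee against 60184 and passed in neither.

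Among the JAZ and TIFY genes, which encode the repressors that bind MYC2, 4 of 7 rose in Manatee against 60184, with a median difference of 2.45 over the list against -0.01 over all genes tested. The JAZ1-type gene Lsat_1_v5_gn_1_37841 rose by 2.88 ± 0.30, the TIFY10A gene Lsat_1_v5_gn_5_137041 by 3.70 ± 0.42 and JAZ10 (Lsat_1_v5_gn_3_31461) by 2.45 ± 0.46 on the log2 scale. In Okeechobee against Manatee 2 of 7 rose, with a median difference of 0.84 against 0.02 over all genes. The TIFY10B gene Lsat_1_v5_gn_4_91521 rose there by 2.79 ± 0.47 and was 1.59 ± 0.54 higher in Manatee than in 60184 without passing (edgeR adjusted p = 0.08).

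The bHLH genes matched to MTB or JAM factors, which in Arabidopsis and tomato counteract MYC2, passed in different comparisons. Lsat_1_v5_gn_4_33781 had 773, 733 and 471 CPM in Okeechobee, 195, 505 and 218 CPM in Manatee, and 116, 92.5 and 118 CPM in 60184. It rose by 1.51 ± 0.37 in Manatee against 60184 (edgeR adjusted p = 0.031) and did not pass in Okeechobee against Manatee, at 1.13 ± 0.41. Lsat_1_v5_gn_3_140101 had 143, 156 and 136 CPM in Okeechobee, 26.9, 51.4 and 28.8 CPM in Manatee, and 19.8, 25.2 and 30.0 CPM in 60184. It rose by 2.05 ± 0.27 in Okeechobee against Manatee (edgeR adjusted p = 0.0067) and did not pass in Manatee against 60184, at 0.52 ± 0.28. Like the MYC4-matched gene, the second of these was highest in Okeechobee and overlapped between Manatee and 60184.

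Of 9 synthesis genes, 6 rose in Manatee against 60184 (median 1.49) and 3 rose in Okeechobee against Manatee (median 0.68), where 10.3% and 4.54% of all genes rose. The lipase gene PLA1-Ibeta2 (Lsat_1_v5_gn_6_94020) rose in both comparisons, by 1.79 ± 0.19 and 0.82 ± 0.17. A 12-oxophytodienoate reductase gene (OPR, Lsat_1_v5_gn_4_68701) rose by 1.69 ± 0.19 in Manatee against 60184. JAR1 (Lsat_1_v5_gn_4_34281), which conjugates jasmonate to isoleucine, rose by 2.61 ± 0.38 in Okeechobee against Manatee, as did the thiolase gene ACAA1 (Lsat_1_v5_gn_5_179700) by 2.54 ± 0.55. JAR1 had 284, 280 and 229 CPM in Okeechobee, 28.2, 71.6 and 32.1 CPM in Manatee, and 23.9, 21.3 and 19.6 CPM in 60184.

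Of 4 turnover genes, 3 rose in Manatee against 60184 (median 3.18) and none passed in Okeechobee against Manatee (median 1.74). The cytochrome P450 genes CYP94B3 (Lsat_1_v5_gn_1_29060) and CYP94C1 (Lsat_1_v5_gn_6_40941), which oxidise the active hormone, rose by 5.63 ± 0.76 and 4.14 ± 0.65, and the jasmonate hydroxylase gene JOX2 (Lsat_1_v5_gn_2_124860) by 2.21 ± 0.36. CYP94B3 had 135, 36.6 and 17.2 CPM in Okeechobee, 30.6, 148 and 39.5 CPM in Manatee, and 1.83, 0.740 and 1.87 CPM in 60184. A further CYP94C1-type gene (Lsat_1_v5_gn_8_23721) was at -0.70 ± 0.40 in Manatee against 60184 and at 1.78 ± 0.67 in Okeechobee against Manatee and passed in neither.

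**Figure D4:**
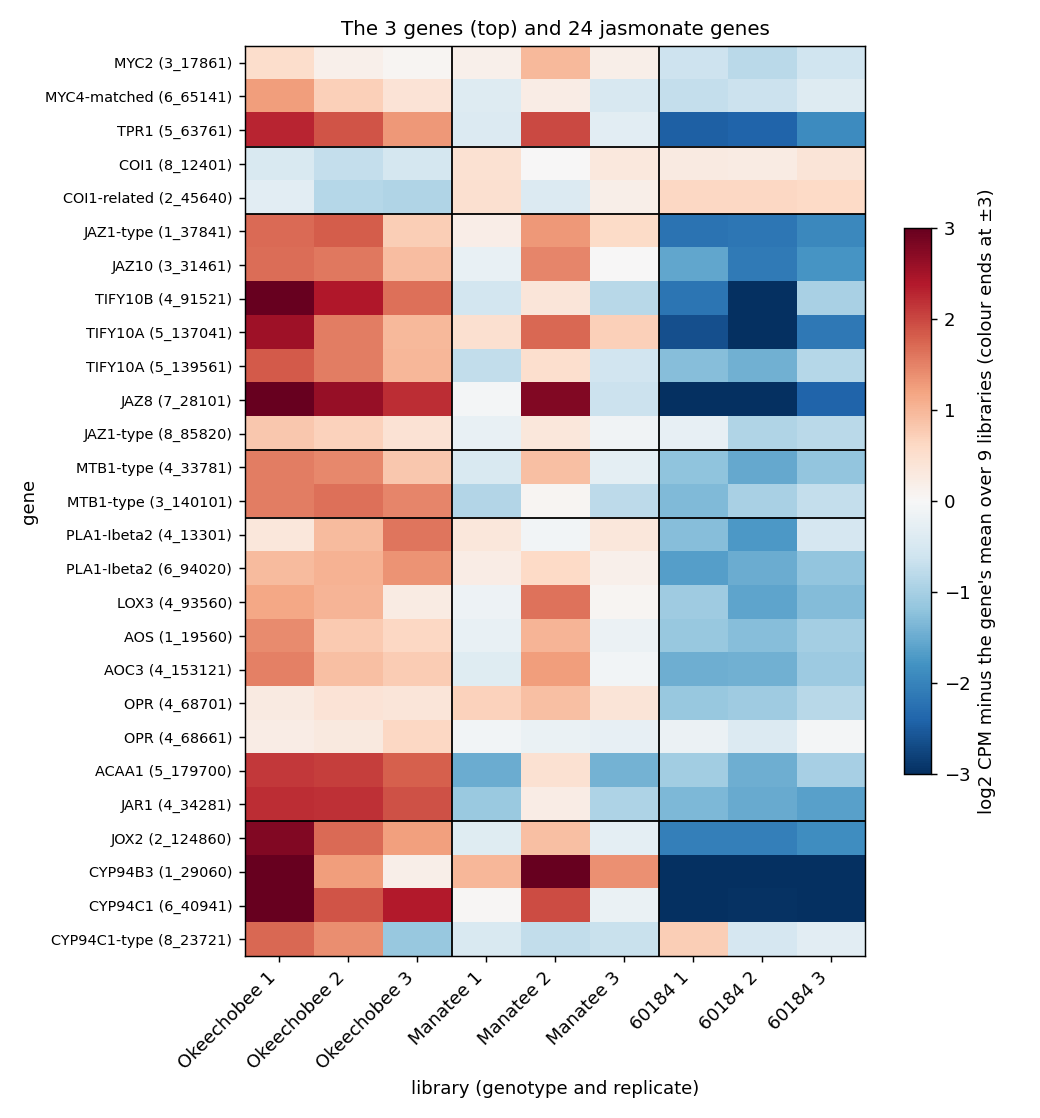
Log2 CPM of the 3 genes (top block) and of 24 jasmonate genes in the 9 libraries, each minus the gene's own mean over all libraries. Red is above and blue below that mean, the colour ends at ±3, and lines separate the genotypes and the lists. Manatee replicate 2 is redder than the other Manatee libraries for TPR1 and for all 7 JAZ genes, and both COI1 genes are lowest in Okeechobee on average.

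Other bHLH genes did not share one direction. Of 23 described bHLH genes outside the MYC and MTB groups, 3 rose and 8 fell in Manatee against 60184 (median -0.91), and 3 rose and 1 fell in Okeechobee against Manatee among 22 tested (median -0.04). Of all genes, 10.3% rose and 8.6% fell in the first comparison, and 4.54% rose and 3.74% fell in the second. An HLH domain gene, Lsat_1_v5_gn_5_54180, had no reads in Manatee, at most 6 reads in an Okeechobee library, and 212, 185 and 215 reads in 60184. IBH1 (Lsat_1_v5_gn_5_178301), an inhibitor of cell elongation in Arabidopsis, rose by 3.53 ± 0.43 in Manatee against 60184. The PRE1-related gene Lsat_1_v5_gn_3_100601 fell by 1.69 ± 0.24 and the bHLH63-related gene Lsat_1_v5_gn_1_70060 by 1.03 ± 0.15. The count that fell in Manatee against 60184 was 3, 4 and 5 without 60184 replicates 1, 2 and 3, and 13 with DESeq2. These bHLH descriptions came from the same tables as the jasmonate lists, with the same limit.

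Similarity of profile was measured as Pearson's r of log2 CPM over the 9 libraries among 22657 other genes. It is a description: the libraries fall into 3 genotypes, and genes that separate them alike have a high r. The MYC4-matched gene had an r of 0.65 with MYC2 and 0.90 with TPR1, and MYC2 had an r of 0.89 with TPR1. An r over 0.95 was reached by 251 genes for MYC2, 138 for the MYC4-matched gene and 560 for TPR1.

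Among the 10 genes most like TPR1, all described, were genes matched to diacylglycerol kinase 1 (r = 0.995), serine hydroxymethyltransferase 6, an SH3 domain protein, allene oxide cyclase 3 (AOC3, Lsat_1_v5_gn_4_153121, r = 0.995), an enzyme of jasmonate synthesis, and a dynamin-like protein. JAZ10 was at place 34 for TPR1 with an r of 0.989. The 10 genes most like MYC2 included a gene matched to syntaxin-121 (r = 0.996), a predicted transposase, a DCD domain protein, a leucine-rich repeat receptor kinase and a TIR-NBS-LRR disease resistance gene, and CYP94B3 was at place 52 with an r of 0.976. Of the 10 genes most like the MYC4-matched gene, 5 were described: a protein kinase, glutamate receptor 3.6, DNA-binding protein phosphatase 1, and 2 alpha/beta-hydrolases. The TIFY10A gene Lsat_1_v5_gn_5_139561 was at place 17 for the MYC4-matched gene with an r of 0.978. These named jasmonate genes were among the best placed. The 24 jasmonate genes ran from place 52 to 18456 for MYC2, 17 to 21655 for the MYC4-matched gene and 4 to 21565 for TPR1. JAR1 was at place 4827 for MYC2, and both COI1 genes had a negative r with MYC2, the MYC4-matched gene and TPR1. By ranks in place of Pearson's r, 1 of the 10 genes for MYC2 and 2 of 10 for each of the other genes stayed among the 10 most alike.

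Genes next to the 3 by identifier number did not share one direction. Of all genes, 10.3% rose and 8.6% fell in Manatee against 60184. The shares were 4.54% and 3.74% in Okeechobee against Manatee, and 16.2% and 15.3% in Okeechobee against 60184. With only 4 to 6 neighbours tested per gene, the counts below are small and were not tested against these shares. Of the 10 identifiers around MYC2, 6 were tested, and 1 fell in Manatee against 60184, an abscisic acid receptor gene related to PYL1 (Lsat_1_v5_gn_3_17760, -1.46). An undescribed gene, Lsat_1_v5_gn_3_18001, rose by 1.46 in Okeechobee against Manatee. The gene whose identifier follows MYC2, Lsat_1_v5_gn_3_17880, matched to ubiquitin-specific protease 21, rose by 1.98 in Okeechobee against 60184, where 3 of the 6 tested rose and 2 fell. In that contrast Lsat_1_v5_gn_3_18001 rose by 1.72 and Lsat_1_v5_gn_3_17760 fell by 1.40. Around the MYC4-matched gene 6 were tested, and 1 fell in Manatee against 60184 (Lsat_1_v5_gn_6_64901, -1.26), and 3 fell in Okeechobee against 60184, among them Lsat_1_v5_gn_6_64901 (-1.63). Around TPR1 4 of 10 were tested and 1 rose in Manatee against 60184 by 0.71, and 5 had no read in any library.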

How the data were processed

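RNA of mature leaves was sequenced as paired Illumina reads. The authors trimmed the reads, aligned them to the Lsativa v5 genome with STAR and counted reads per gene with HTSeq. The paper also names SAMtools and in-house scripts, used to take out likely PCR duplicates. The deposited values are raw read counts per gene for each library, in the sense that they were not scaled. Reads that matched several places were set aside by the HTSeq counting, at 3.825 to 8.032% of aligned reads, so reads common to gene copies may be missing. Whether counting used strand is not given in the sources used here. HTSeq's summary lines were left out of library sizes and tests.

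Counts were scaled by TMM in edgeR 4.0.16 (R 4.3.3). For each pair of genotypes, the 6 libraries were tested alone, on genes that reached 10 counts in 3 or more of them, with edgeR's quasi-likelihood F test (robust), with Benjamini-Hochberg adjustment over all genes tested and a threshold of 0.05. Ratios within libraries had 0.5 reads added and were compared with two-sided exact permutation tests in scipy 1.17.1. Similarity used log2 CPM with a prior count of 2. The study describes its samples as biological replicates. The labels give only a replicate number, so the p-values measure the spread between these libraries. The tests were checked on simulated data.

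Named genes were the 3 genes, up to 4 genes of each list by the smallest p in a comparison with Manatee, up to 5 described genes among the 10 most alike, and called identifier neighbours with a log2 change of at least 1; JAZ10, CYP94B3 and Lsat_1_v5_gn_5_139561 were named for likeness, and the TPR1 neighbour for its call, after their values were seen. The genes and lists were chosen with earlier results of these data known, and gene descriptions come from supplementary tables held in part here, of which only the descriptions were used. Alternatives were DESeq2 1.42.0, other scalings and filters, 1 model of all 9 libraries, a replicate block and leaving out each library.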

Additional observations from a re-analysis of the deposited data

How the results depend on the processing

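The labels do not say whether the replicate numbers pair the libraries. The deviations of same-numbered libraries correlated at -0.303 to 0.277, with no common sign, which cannot settle whether they do. With a replicate block, MYC2 in Manatee against 60184 was 1.12 (edgeR adjusted p = 0.061, the only call on the 3 genes that this block changed), and 2320 genes passed there against 4177 without it, and 596 against 1817 in Okeechobee against Manatee.

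For the 3 genes, the sign held under every other test, scaling and filter run. In Okeechobee against Manatee, the MYC4-matched gene passed at 1.02 with DESeq2, 1.09 with library size only and 1.01 in the model of all 9 libraries. In that comparison it did not pass in the other 5 of the 8 alternative settings. There DESeq2 called 3654 genes and the model of 9 libraries 3099, and DESeq2 counted 10 jasmonate genes and 6 other bHLH genes higher and 5 other bHLH genes lower. With library size only, 0 jasmonate genes were lower. In Manatee against 60184, DESeq2 counted 13 other bHLH genes lower.

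With 1 library left out, Manatee against 60184 gave 0.85 to 1.33 for MYC2, 1.88 to 3.50 for TPR1, 1232 to 4381 genes called, 6 to 15 jasmonate genes higher, and 1 to 3 other bHLH genes higher and 3 to 10 lower. Okeechobee against Manatee gave -0.37 to 0.10 for MYC2, 0.74 to 1.27 for the MYC4-matched gene, 0.66 to 2.25 for TPR1, 430 to 2152 genes called, 1 to 12 jasmonate genes higher and 0 to 1 lower, and 0 to 3 other bHLH genes higher and 0 to 5 lower. Okeechobee against 60184 gave 4073 to 6858 genes called. MYC2 in Okeechobee against Manatee changed sign without Manatee replicate 2 (0.10). Fits that leave a library out have fewer samples. The cause of the other changes was not tested. Within-library ratios without a pseudocount changed by less than the spread between replicates. The TPR1 level in 60184 rests on the fewest reads, 522 over its libraries.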
